A study of Mus musculus with 62 samples.

Results

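The matrix metalloproteinases (Mmp), the ADAMTS proteases and the tissue inhibitors of metalloproteinases (Timp) were taken as every gene whose symbol names a numbered member of these families. This gave 46 of the 47643 genes in the expression table, of which 23 were Mmp, 19 Adamts and 4 Timp genes, and no measured value entered the choice. They were followed in soleus, a slow hindlimb muscle, of female mice injected with cachectic melanoma cells (CAC), with non-cachectic ones (NCAC), or with no tumour cells as a mock (Con). Muscle was collected at 2, 4, 6 and 8 weeks. There were 62 libraries in 12 groups, with 7 for CAC at 8 weeks and 5 for every other group, and the labels call those of a group biological replicates. The mice were 2 months old according to the labels, which do not say whether this was the age at injection or at collection. The sample entries give the strain as C57BL6/J and the design text gives athymic nude mice. The protocol text also speaks of LLC cells, another tumour line, so neither the strain nor the immune status of the hosts is settled here. The labels name no melanoma line. No genetic change in the mice is named for any group.

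Matrix metalloproteinases are zinc enzymes, made as inactive precursors, that cut collagens, gelatin, laminin and other matrix proteins outside the cell. ADAMTS proteases carry thrombospondin repeats and cut proteoglycans such as versican and aggrecan, or trim procollagens before fibrils form. The 4 Timp proteins bind the active sites of these enzymes, and Timp3 is the main inhibitor of the ADAMTS group. In skeletal muscle much of this system is made by fibroblasts, vessel cells and immune cells rather than by the fibres, and it takes part in regeneration and fibrosis. The values are transcript abundances in TPM, which are scaled by transcript length and allow levels of different genes to be compared, but they say nothing of enzyme activity. How many reads stand behind a value cannot be read from TPM. In whole muscle, fewer cells of a type and less RNA per cell cannot be told apart.

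The Mmp genes include a cluster of 10 on mouse chromosome 9, chr9:7272514-7699585 in GENCODE M21 (mm10), a span of 427 kb. In chromosome order it holds Mmp13, Mmp12, Mmp1b, Mmp3, Mmp1a, Mmp10, Mmp8, Mmp27, Mmp20 and Mmp7. The cluster contains Mmp3, which differed most between CAC and Con, beside genes that were near 0, so the bases just upstream of 5 of its genes are shown. Each is the 120 bases before the RefSeq start (GRCm38.p6, plus strand), with capitals marking the AP-1 motif TGANTCA, the site bound by Fos and Jun factors. The windows are chr9:7445702-7445821 for Mmp3, chr9:7502222-7502341 for Mmp10, chr9:7272394-7272513 for Mmp13, chr9:7571276-7571395 for Mmp27 and chr9:7558309-7558428 for Mmp8.
Mmp3: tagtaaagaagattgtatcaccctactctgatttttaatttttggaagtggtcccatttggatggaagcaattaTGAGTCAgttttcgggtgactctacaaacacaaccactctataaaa
Mmp10: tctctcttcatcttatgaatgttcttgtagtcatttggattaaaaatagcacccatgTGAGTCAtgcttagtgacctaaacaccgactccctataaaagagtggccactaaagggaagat
Mmp13: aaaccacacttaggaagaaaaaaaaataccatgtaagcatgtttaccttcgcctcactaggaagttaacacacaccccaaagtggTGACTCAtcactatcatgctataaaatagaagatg
Mmp27: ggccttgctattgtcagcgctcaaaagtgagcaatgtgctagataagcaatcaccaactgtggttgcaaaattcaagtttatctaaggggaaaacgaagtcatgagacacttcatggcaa
Mmp8: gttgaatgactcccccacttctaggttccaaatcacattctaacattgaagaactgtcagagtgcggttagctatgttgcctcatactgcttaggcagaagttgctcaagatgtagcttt
The Mmp3, Mmp10 and Mmp13 windows each held 1 match, and those of Mmp27 and Mmp8 held none. Of the 46 members, 32 had a RefSeq promoter here. Over the 250 bases upstream, TGANTCA, searched on both strands, was found in 8 of the 10 cluster genes and in 0 of the 22 other members. It was found in 6.75% of all 32851 promoters. The C/EBP motif TTGCNNAA, searched on both strands, was in 6 cluster genes (Mmp10, Mmp12, Mmp27, Mmp3, Mmp7 and Mmp8), in 0 other members and in 9.56% of all promoters. TATAAA was in 9 members, 7 of them in the cluster, and in 12.4% of all promoters. The STAT motif TTCNNNGAA was in Mmp23 alone among the members and in 7.02% of all promoters, and the NF-kB motif GGGNNTTCC was in 0 members and 4.98% of promoters. A member was counted if any of its RefSeq starts had a match, while the percentages are per promoter. Mmp12 had its AP-1 and C/EBP matches before different starts. The cluster genes are relatives that lie side by side, so their matches are not independent of one another. These motifs were settled on after several had been searched for in these windows. A match is a run of letters and not evidence that a factor binds there.

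Of the 46 members, 29 reached at least 1 TPM in at least 5 of the 62 libraries and were tested, as were 13529 of all genes. The 17 others were Mmp1a, Mmp1b, Mmp7, Mmp8, Mmp10, Mmp12, Mmp16, Mmp17, Mmp20, Mmp21, Mmp24, Mmp25, Adamts3, Adamts13, Adamts16, Adamts17 and Adamts18. Mmp1a and Mmp1b, the mouse counterparts of human MMP1, were listed at 0 in all 62 libraries. Mmp27, Mmp9 and Adamts19 met the level of 1 TPM only in libraries of week 8, and Adamts4 only in libraries of CAC at 4, 6 and 8 weeks. Mmp27 met it in CAC and NCAC but in no Con library, and Adamts19 in NCAC and Con but in no CAC library. Such genes entered the test through the groups in which they were high, so counts over the tested members describe them and carry no further weight. The tissue matched its label as skeletal muscle, since Acta1, the skeletal muscle actin, lay between 11400 and 52900 TPM over the 62 libraries. Of slow fibre genes, Tnnt1, the slow troponin T, lay between 1670 and 7420 TPM and Myh7, the slow myosin, between 453 and 9050 TPM. Myh4, a fast fibre myosin, reached 2040 TPM in CAC replicate 6 of 8 weeks and 1010 TPM in CAC replicate 4 of 2 weeks. It was at 687 TPM in NCAC replicate 3 of 6 weeks and under 500 TPM in all other libraries. The libraries of week 8 stood apart in every treatment: 16 of the 17 lay beyond all earlier libraries on the leading component, which held 56.9% of the variance, and NCAC replicate 2 of week 8 was the exception.

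In Con at 2 weeks the most abundant members were Mmp2 at 61.9 ± 25.7 TPM, Timp2 at 55.9 ± 16.6 TPM and Timp3 at 40.1 ± 14.6 TPM (SD, n = 5 each), whose ranges overlapped. Adamts1, a proteoglycanase, followed at 28.2 ± 6.33 TPM (SD, n = 5). Mmp2 alone made up 66.1 ± 8.22% of the summed Mmp TPM (SD, n = 5). A gelatinase, an ADAMTS gene and a pair of inhibitors thus led the families in Con soleus, while Mmp3 stood at 0.386 ± 0.268 TPM, Adamts4 at 0.127 ± 0.0826 TPM and Mmp9 at 0.131 ± 0.0831 TPM (SD, n = 5 each).

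No member passed at 2 weeks, and few differed at 4 weeks. A call means an adjusted p under 0.05 (limma on log2(TPM + 1), Benjamini-Hochberg over all 13529 genes). At 2 weeks 0 of 29 members passed for CAC against Con, CAC against NCAC or NCAC against Con, where 0%, 0.503% and 0.00739% of all tested genes did; for CAC against NCAC 0.399% of all genes were higher in CAC. At an unadjusted p under 0.05 the member counts were 1, 3 and 4, against 1315, 2664 and 1538 of all 13529 genes. At 4 weeks 0 members passed for CAC against Con, where 1.03% of all genes did. There 9 members and 2709 of all genes had an unadjusted p under 0.05. Against NCAC 1 member passed, Mmp2, which was higher in CAC, where 5.11% of all genes were higher and 0.732% lower, 5.84% in all, and 10 members and 3722 of all genes had an unadjusted p under 0.05. NCAC against Con gave 0 members, where 0.00739% of all genes passed and 0 members and 242 of all genes had an unadjusted p under 0.05.

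The CAC libraries of 4 weeks differed among themselves. Mmp3 had 2.08, 5.1, 0.74, 15 and 0.954 TPM in CAC, against 0.377, 0.169, 0.493, 0.689 and 1.4 TPM in NCAC and 0.828, 0.198, 0.603, 0.114 and 0.267 TPM in Con, in the order of the replicate numbers. Replicates 2 and 4 were the highest in CAC, and the ranges overlapped. The same libraries had the highest summed macrophage markers, at 403 and 357 TPM, where the others of CAC had 138 to 223 TPM, and the highest summed fibro-adipogenic progenitor markers, at 2600 and 2330 TPM against 1440 to 1700 TPM. They also lay at 3.54 and 4.16 on the leading component, where the other CAC libraries of 4 weeks lay between -27.5 and -18.9, and the part of these differences in the result was not tested. The log2 difference between CAC and Con was 1.54 ± 0.47 (SE), and did not pass (adjusted p = 0.108). Without CAC replicate 5 it passed against Con (0.0403) and against NCAC (0.0344, all libraries 0.0874). Adamts4 gave 0.13, 1.2, 0.442, 1.7 and 0.252 TPM in CAC, with the same replicates 2 and 4 on top, against 0.0215 to 0.225 TPM in NCAC and 0.0107 to 0.256 TPM in Con. It did not pass against Con (adjusted p = 0.13) or NCAC (0.0764), the difference from NCAC passing without CAC replicate 1 or 5 (0.0285 and 0.032). Mmp2 had 81.7, 107, 70.6, 136 and 74.7 TPM in CAC and 67.7, 49.4, 58.1, 54.4 and 76.4 TPM in NCAC. That difference was 0.58 ± 0.16 (SE) on the log2 scale with an adjusted p of 0.0495, and it did not pass without CAC replicate 2 or 4 (adjusted p = 0.121 and 0.109) or NCAC replicate 1, 2, 3 or 4 (0.0856, 0.114, 0.0917 and 0.0892).

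**Figure D1:**
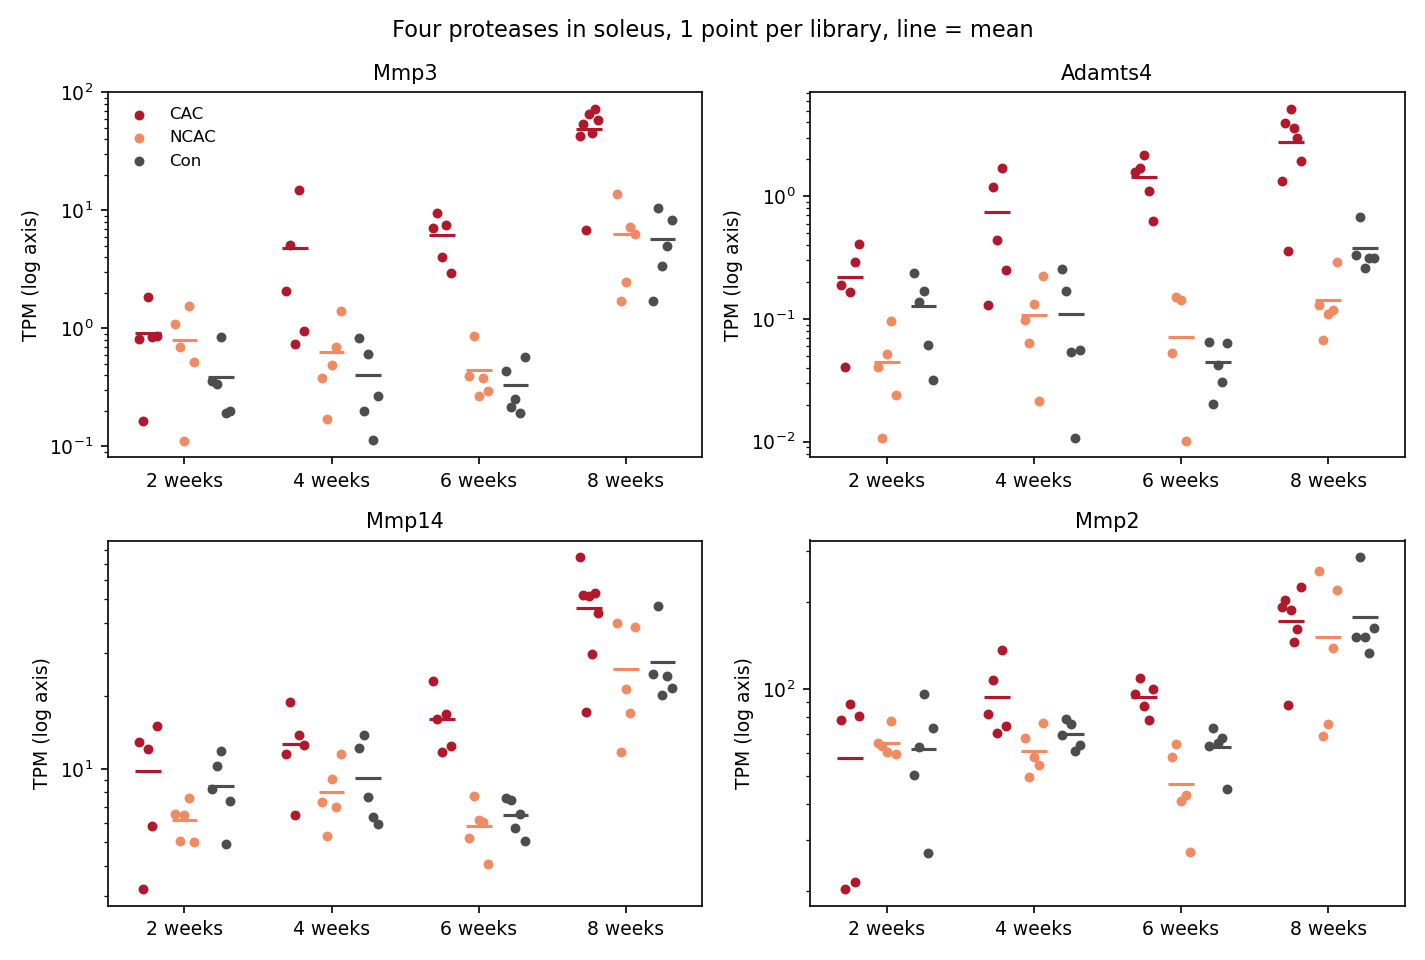
TPM per library (points, log axis) of Mmp3, Adamts4, Mmp14 and Mmp2 in CAC, NCAC and Con at 2, 4, 6 and 8 weeks, with the group mean as a line. At 6 weeks all 5 CAC libraries lie above all Con and NCAC libraries in each panel, and at 8 weeks Mmp2 overlaps between the groups.

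At 6 weeks many of the proteases and the inhibitors Timp3 and Timp4 were higher in CAC muscle. In CAC against Con, 12 of the 29 members rose and 2 fell, against 23.5% and 3.87% of all tested genes in the same directions, 27.4% in all. The 12 were Mmp2, Mmp3, Mmp11, Mmp14, Mmp19, Mmp27, Adamts4, Adamts9, Adamts12, Adamts15, Timp3 and Timp4, and the 2 were Mmp15 and Adamts8. Against NCAC the counts were also 12 higher and 2 lower, where 27.8% and 4.86% of all genes passed in those directions, 32.6% in all. There Timp2 and Adamts1 stood among the higher in place of Mmp27 and Adamts12, and Adamts14 among the lower in place of Adamts8. NCAC against Con gave 0 of 29 members, where 0% of all genes passed and 1 member and 328 of all genes had an unadjusted p under 0.05. The comparisons of CAC with Con and with NCAC share the CAC libraries. After rescaling by median-of-ratios factors, which moved the median log2 difference of all genes by -0.17 against Con and against NCAC, 8 members were higher and 3 lower against Con and 9 higher and 2 lower against NCAC. All tested genes then split into 1528 higher and 1510 lower against Con, in place of 3181 and 524, and into 1988 and 1829 against NCAC, in place of 3758 and 658.

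Mmp3, stromelysin-1, which cuts proteoglycans and activates the precursors of other Mmp enzymes, moved most. It had 7.13, 9.49, 4.05, 7.54 and 2.93 TPM in CAC at 6 weeks, against 0.394, 0.87, 0.267, 0.382 and 0.294 TPM in NCAC and 0.435, 0.217, 0.252, 0.19 and 0.57 TPM in Con. Every CAC library lay above every library of the other groups, by 2.36 ± 0.21 (SE) on the log2(TPM + 1) scale against Con (adjusted p = 1.33e-06) and 2.25 ± 0.21 against NCAC (adjusted p = 2.08e-06). This scale understates the change of low genes. Its relative Mmp10, stromelysin-2, was at 0 in all CAC and Con libraries of that week. How the quantification shared reads between such similar genes is not given in the sources used here.

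Mmp14, the membrane-type enzyme that activates pro-Mmp2 at the cell surface together with Timp2, had 23.1, 16.1, 11.7, 16.8 and 12.4 TPM in CAC, against 5.18, 7.75, 6.14, 6.05 and 4.07 TPM in NCAC and 7.56, 7.43, 5.71, 6.5 and 5.07 TPM in Con. The groups did not overlap, and the log2 difference was 1.17 ± 0.17 (SE) against Con (adjusted p = 0.000224) and 1.30 ± 0.17 against NCAC (adjusted p = 6.38e-05). Mmp2, gelatinase A, had 95.8, 109, 87.5, 77.8 and 100 TPM in CAC, against 58.3, 64.3, 40.9, 42.9 and 27.2 TPM in NCAC and 63.7, 73.4, 65.1, 67.8 and 45.1 TPM in Con. These groups did not overlap either, and the log2 difference was 1.05 ± 0.19 (SE) against NCAC (adjusted p = 0.000831) and 0.58 ± 0.19 against Con (adjusted p = 0.0317). The Mmp2 call against Con was lost on rescaling (adjusted p = 0.15) and without CAC replicate 1 or 2 or Con replicate 3 or 5 (0.0699, 0.0714, 0.0518 and 0.0776). Mmp15, another membrane-type enzyme, went the other way, with 3.89 to 6.81 TPM in CAC, 6.01 to 9.76 TPM in NCAC and 6.15 to 8.68 TPM in Con (log2 difference from Con -0.50 ± 0.14 (SE), adjusted p = 0.0144). Mmp9, gelatinase B, stayed under 1 TPM in every library of 6 weeks, at 0.319 ± 0.161 TPM in CAC, 0.138 ± 0.0758 TPM in NCAC and 0.14 ± 0.0713 TPM in Con (SD, n = 5 each), and did not pass against Con (adjusted p = 0.0798), though it did without CAC replicate 2 (0.0296, and 0.0238 against NCAC).

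Among the other Mmp genes, Mmp19 had 3.4, 3.17, 3.94, 3.12 and 3.4 TPM in CAC, against 0.873 to 1.96 TPM in NCAC and 1.4 to 2.06 TPM in Con. The groups did not overlap, and the difference from Con was 0.76 ± 0.11 (SE) on the log2 scale (adjusted p = 0.000214). Mmp11, stromelysin-3, had 5.56 to 9.29 TPM in CAC, 3.56 to 5.55 TPM in NCAC and 4.25 to 6.02 TPM in Con. It passed against NCAC (adjusted p = 0.00801) and against Con (0.0277), the call against Con being lost on rescaling (0.0821) and without CAC replicate 1, 2 or 4 or Con replicate 2 or 3 (0.0814, 0.0608, 0.0775, 0.0657 and 0.0687). Mmp27 passed against Con at levels of 0.172 to 0.586 TPM in CAC and 0.0232 to 0.132 TPM in Con (adjusted p = 0.0472). That call was lost on rescaling (0.0822) and in 8 of the 10 fits that left out 1 CAC or Con library, all but those without CAC replicate 3 or 5 (0.0523 to 0.114). Mmp13, collagenase-3, the main interstitial collagenase of mice, had 2.36, 0.303, 0.305, 0.105 and 0.111 TPM in CAC, 0 to 0.253 TPM in NCAC and 0 to 0.078 TPM in Con. Its CAC and Con libraries did not overlap, but it did not pass (adjusted p = 0.079 against Con).

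Among the ADAMTS proteoglycanases, Adamts4, aggrecanase-1, had 1.58, 1.71, 2.19, 1.1 and 0.625 TPM in CAC at 6 weeks, against 0.0526, 0.152, 0.144, 0.0102 and 0 TPM in NCAC and 0.065, 0.0203, 0.0419, 0.0304 and 0.0639 TPM in Con. The groups were far apart on the log scale, with a difference of 1.19 ± 0.13 (SE) against Con (adjusted p = 1.31e-05). Adamts5, aggrecanase-2, was level, at 2.77 ± 0.897 TPM in CAC, 2.81 ± 0.541 TPM in NCAC and 2.85 ± 0.568 TPM in Con (SD, n = 5 each, log2 difference from Con -0.05 ± 0.15 (SE), adjusted p = 0.812). Adamts1 had 42.2 ± 6.91 TPM in CAC, 26.1 ± 10.2 TPM in NCAC and 28.8 ± 9.31 TPM in Con (SD, n = 5 each). It passed against NCAC (adjusted p = 0.0343) and not against Con (0.0971), where it passed without Con replicate 5 (0.0495). The call against NCAC was lost on rescaling (0.0726) and without CAC replicate 1, 2, 3 or 4 or NCAC replicate 1, 4 or 5 (0.0742, 0.0604, 0.0663, 0.0651, 0.0697, 0.0583 and 0.0902). Adamts9 had 2.5 to 3.24 TPM in CAC, 0.939 to 3.22 TPM in NCAC and 1.19 to 1.68 TPM in Con (adjusted p = 0.0057 against Con). Against NCAC the Adamts9 call (0.0254) was lost on rescaling (0.0697) and without CAC replicate 1 or 4 or NCAC replicate 1 or 5 (0.0656, 0.0594, 0.062 and 0.0672). Adamts15 had 2.29 to 4.52 TPM in CAC, 1.33 to 1.9 TPM in NCAC and 1.23 to 1.77 TPM in Con, without overlap (adjusted p = 0.0031 against Con).

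At 6 weeks the Adamts8 and Adamts12 calls against Con depended on single libraries. Adamts8 had 3.75 to 6.14 TPM in CAC and 5.37 to 9.37 TPM in Con (adjusted p = 0.0286), and the call was lost without CAC replicate 2 or 4 or Con replicate 2, 4 or 5 (0.0645, 0.0578, 0.0596, 0.0705 and 0.0644). Adamts12, which cuts cartilage oligomeric matrix protein, had 0.585 to 1.03 TPM in CAC and 0.324 to 0.567 TPM in Con (adjusted p = 0.0267), lost without CAC replicate 1, 2 or 4 or Con replicate 2, 3 or 4 (0.06, 0.0606, 0.0723, 0.0547, 0.0611 and 0.0587). Of the procollagen N-proteinases, Adamts14 had 0.997 to 1.57 TPM in CAC and 1.22 to 2.12 TPM in NCAC (adjusted p = 0.0149), and Adamts2 had 4 ± 0.5 TPM in CAC and 3.43 ± 0.256 TPM in Con (SD, n = 5 each, adjusted p = 0.315).

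The inhibitors did not move alike. Timp4 had 31.6, 19.3, 25.1, 25.6 and 22.1 TPM in CAC at 6 weeks, against 15.3, 10.3, 9.15, 15.5 and 13.5 TPM in NCAC and 9.51, 13.1, 17.4, 18.1 and 11 TPM in Con. No CAC library overlapped the other groups, and the log2 difference was 0.82 ± 0.18 (SE) against Con (adjusted p = 0.00499). Timp3 had 95.1, 68.3, 50.3, 72 and 71 TPM in CAC, against 34.9 to 50.5 TPM in NCAC (adjusted p = 0.0042) and 39.3 to 59 TPM in Con (adjusted p = 0.0339). The Timp3 call against Con was lost on rescaling (0.253) and without CAC replicate 1, 2 or 4 or Con replicate 1, 4 or 5 (0.103, 0.0549, 0.0707, 0.0813, 0.0559 and 0.0548). Timp2 had 58.5 ± 4.5 TPM in CAC, 44.6 ± 10.1 TPM in NCAC and 54.7 ± 9.9 TPM in Con (SD, n = 5 each). It passed against NCAC (adjusted p = 0.0433) but not against Con (0.588). The Timp2 call was lost on rescaling (0.305) and without CAC replicate 1, 2, 3 or 4 or NCAC replicate 1, 3 or 5 (0.0868, 0.0946, 0.0516, 0.0649, 0.0596, 0.081 and 0.116). Timp1 had 7.12 ± 1.43 TPM in CAC, 5.85 ± 2.35 TPM in NCAC and 4.53 ± 1.35 TPM in Con (SD, n = 5 each), with an adjusted p of 0.0839 against Con.

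**Figure D2:**
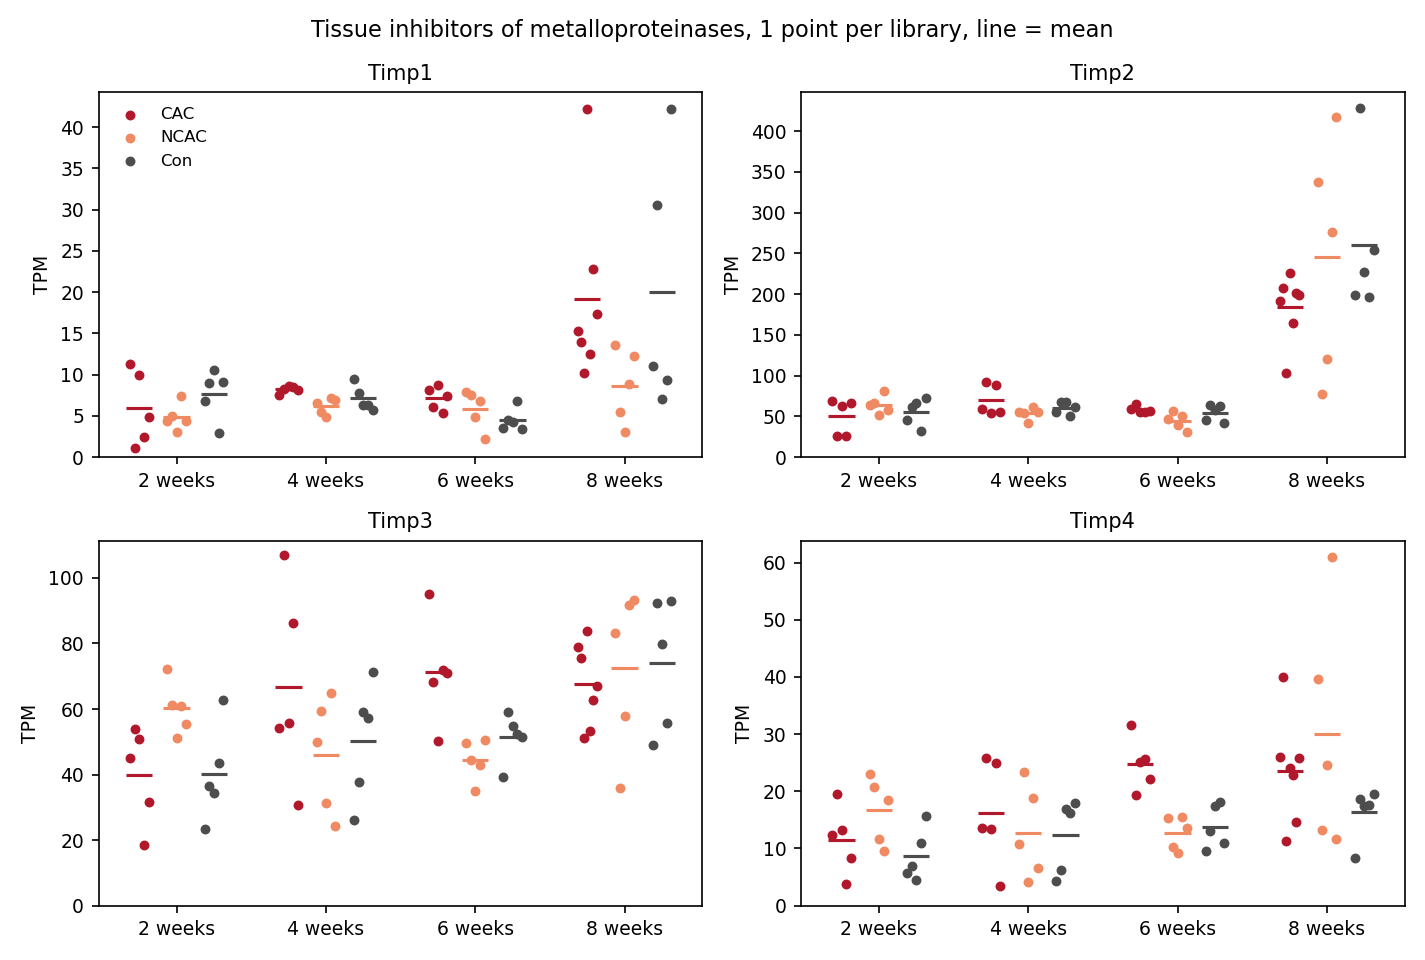
TPM per library (points, linear axes from 0) of Timp1, Timp2, Timp3 and Timp4 in CAC, NCAC and Con at 2, 4, 6 and 8 weeks, with the group mean as a line. Timp2 is at 103 to 226 TPM in CAC and 196 to 428 TPM in Con at 8 weeks, and Timp4 is at 19.3 to 31.6 TPM in CAC and 9.51 to 18.1 TPM in Con at 6 weeks.

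At 8 weeks fewer members passed, and Mmp3, Adamts4 and Mmp27 rose in CAC against both NCAC and Con. In CAC against Con 3 of the 29 members rose and 3 fell, against 6.31% and 4.26% of all tested genes, and 14 members and 3617 of all genes had an unadjusted p under 0.05. Of all genes 10.6% passed in either direction. The falls were Adamts10, Adamts14 and Adamts19. Against NCAC 6 members rose (Mmp3, Mmp27, Adamts1, Adamts4, Adamts9 and Adamts15) and Adamts10 fell, against 19.3% and 2.68% of all genes, 21.9% in all. The share of members called in either direction, 24.1%, was near that of all genes. Without NCAC replicates 2 and 3, whose summed tenocyte markers were under 200 TPM, 3 members were higher and 7 lower against NCAC. All genes then split into 1794 higher and 1141 lower in place of 2606 and 362. Mmp27 (adjusted p = 0.082), Adamts9 (0.0969) and Adamts15 (0.159) no longer passed. After rescaling of all libraries, which moved the median log2 difference from NCAC by -0.18, the counts against NCAC were 5 and 1. All genes then split into 721 higher and 762 lower in place of 2606 and 362. NCAC against Con gave 0 members, where 0% of all genes passed and 1 member and 1205 of all genes had an unadjusted p under 0.05. Libraries varied more at this time, and the SE of the Mmp3 difference was 0.53 at 8 weeks and 0.21 at 6 weeks.

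Mmp3 ranged between 6.88 and 72.9 TPM in CAC at 8 weeks with a median of 54.1 TPM, against 13.7, 1.69, 2.46, 7.25 and 6.35 TPM in NCAC and 1.72, 10.4, 3.39, 4.96 and 8.33 TPM in Con. In CAC 6 libraries stood at 42.8 TPM or more, above every library of NCAC and Con, and replicate 3 stood at 6.88 TPM, inside their range. The log2 difference was 2.84 ± 0.53 (SE) against Con (adjusted p = 0.00445) and 2.81 ± 0.53 against NCAC (adjusted p = 0.00258). Mmp3 was 14.5 ± 5.08% of the summed Mmp TPM in CAC (SD, n = 7), against 2.52 ± 0.96% in NCAC and 2.11 ± 0.95% in Con (SD, n = 5 each).

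Adamts4 lay between 0.36 and 5.19 TPM in CAC at 8 weeks with a median of 2.97 TPM, against 0.0668 to 0.292 TPM in NCAC and 0.262 to 0.682 TPM in Con. Here too replicate 3 was the lowest CAC library and overlapped Con, and the log2 difference was 1.31 ± 0.28 (SE) against Con (adjusted p = 0.00754). Mmp27, of the same cluster as Mmp3 but not next to it, lay between 0.475 and 3.42 TPM in CAC with a median of 2.31 TPM. It had 0.166 to 1.06 TPM in NCAC and 0.24 to 0.854 TPM in Con (log2 difference from Con 1.02 ± 0.24 (SE), adjusted p = 0.0128). Adamts1 had 23.5 to 53.2 TPM in CAC, 16.9 to 26 TPM in NCAC and 22.1 to 30.1 TPM in Con. It passed against NCAC (log2 difference 0.87 ± 0.16 (SE), adjusted p = 0.00226) and not against Con (adjusted p = 0.0624), where it passed without CAC replicate 3 (0.00916). Adamts9 had 1.8 to 7.2 TPM in CAC and 1.09 to 2.7 TPM in NCAC (adjusted p = 0.0173). Adamts15 had 3.19 to 17.4 TPM in CAC and 1.88 to 4.41 TPM in NCAC (adjusted p = 0.0309), a call lost on rescaling (0.0666) and without CAC replicate 1 or 2 or NCAC replicate 2, 3 or 4 (0.0595, 0.064, 0.0686, 0.0743 and 0.0593).

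The 3 falls against Con were in ADAMTS genes. Adamts10, which acts on fibrillin microfibrils, had 5.72 to 8.81 TPM in CAC, 7.32 to 16.6 TPM in NCAC and 10.9 to 17.9 TPM in Con. All CAC libraries lay below all Con libraries, at -0.83 ± 0.20 (SE) on the log2 scale (adjusted p = 0.0141). Against NCAC the Adamts10 call (0.0348) was lost without CAC replicate 1 or 2 or NCAC replicate 1, 4 or 5 (0.0576, 0.06, 0.0826, 0.0994 and 0.0927). Adamts14 had 0.521 to 1.94 TPM in CAC, 0.675 to 3.55 TPM in NCAC and 2.04 to 5.1 TPM in Con, at -0.96 ± 0.26 (SE) against Con (adjusted p = 0.0253), lost without CAC replicate 1 or Con replicate 1 or 2 (0.0517, 0.0623 and 0.0762). Adamts19 had 0.104 to 0.416 TPM in CAC, 0.0376 to 1.17 TPM in NCAC and 0.459 to 1.97 TPM in Con (adjusted p = 0.0366). That call was lost with a pseudocount of 0.1 (0.0501) and in 9 of the 12 fits that left out 1 CAC or Con library, all but those without CAC replicate 3 or 4 or Con replicate 3 (0.05 to 0.107).

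The members that rose at 6 weeks included several that did not pass at 8 weeks. Mmp14 lay between 17.2 and 74.6 TPM in CAC with a median of 51.8 TPM, against 11.7 to 40 TPM in NCAC and 20.2 to 46.8 TPM in Con, and had an adjusted p of 0.222 against Con and 0.0872 against NCAC. The Mmp14 difference from NCAC passed without CAC replicate 3 or NCAC replicate 1 (0.0217 and 0.0499). Mmp2 had 172 ± 45.6 TPM in CAC (SD, n = 7), 152 ± 84.4 TPM in NCAC and 177 ± 62.1 TPM in Con (SD, n = 5 each), with a log2 difference from Con of -0.04 ± 0.32 (SE, adjusted p = 0.957). Mmp9 had 0.306 to 1.15 TPM in CAC, 0.467 to 2.49 TPM in NCAC and 0.696 to 11.1 TPM in Con. Its log2 difference from Con was -1.12 ± 0.38 (SE, adjusted p = 0.0656), and it passed without Con replicate 1 (0.0387). The inhibitors did not pass against Con: Timp1 had an adjusted p of 0.902, Timp2 of 0.426, Timp3 of 0.819 and Timp4 of 0.456. Against NCAC they did not pass either, with 0.0865, 0.743, 0.926 and 0.783 in the same order. There the log2 difference of Timp1 was 1.075, which passed in 1 fit of all 12 groups (0.0107). Timp2 was called lower in CAC than in NCAC without NCAC replicates 2 and 3 (0.0215). The difference between the CAC effects at 8 and 6 weeks was called for 0 of 29 members by limma, where 0% of all genes passed and 7 members and 1463 of all genes had an unadjusted p under 0.05. For Mmp3 it was 0.48 ± 0.63 (SE) on the log2 scale, for Mmp14 -0.49 ± 0.42 and for Mmp9 -1.32 ± 0.43, so a loss or gain of a call between these weeks is no measured change of the effect. The difference between the effects at 6 and 4 weeks was likewise called for 0 members, where 0.00739% of all genes passed and 5 members and 1218 of all genes had an unadjusted p under 0.05.

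**Figure D3:**
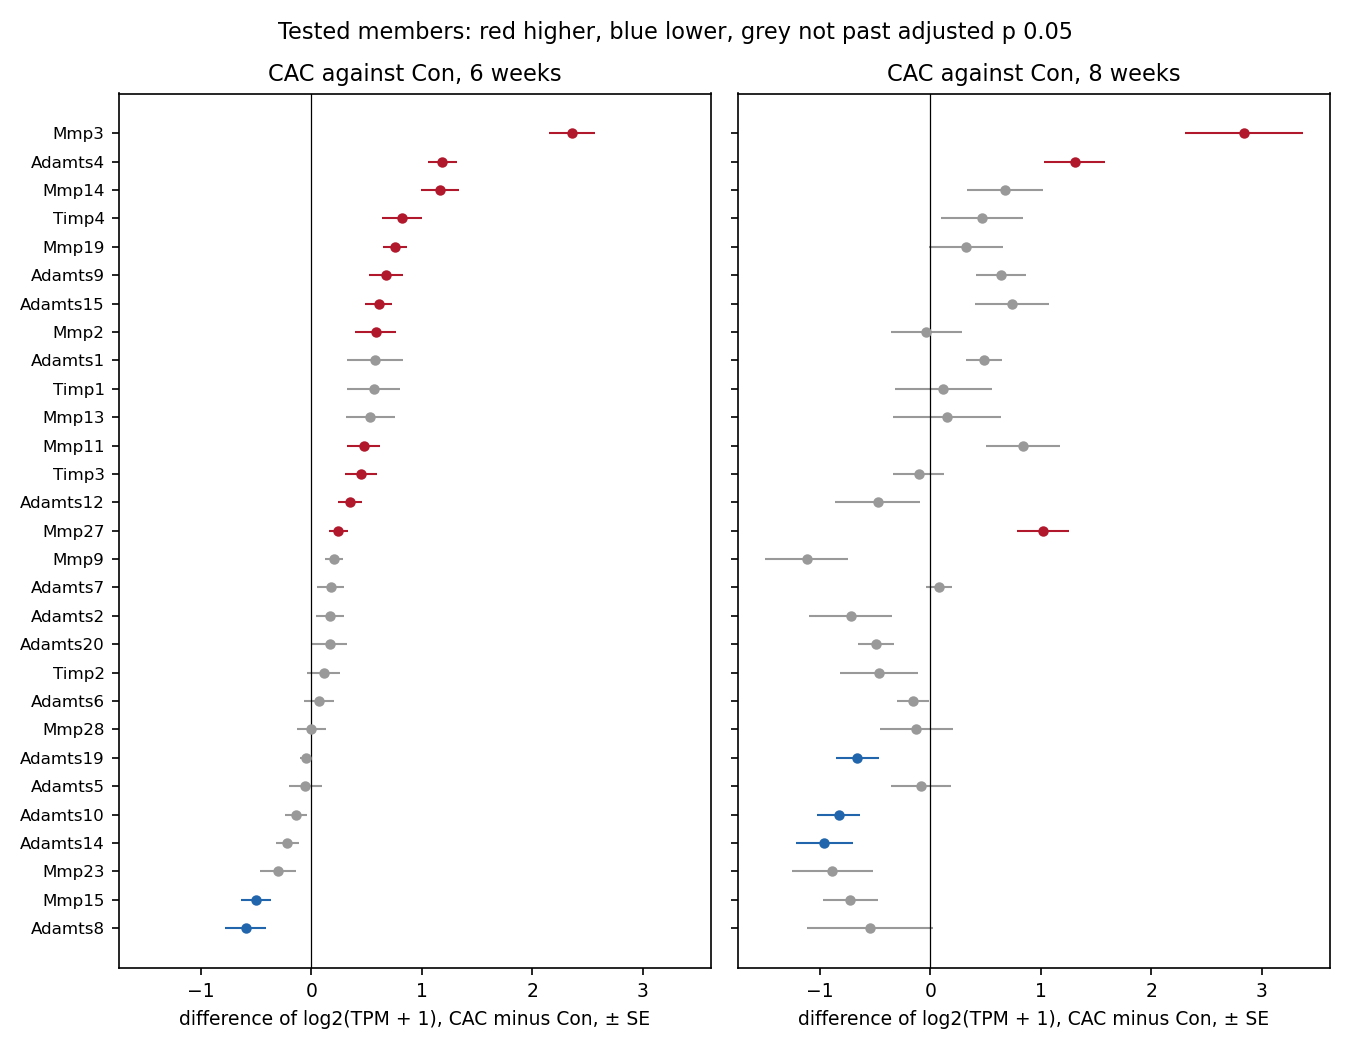
Difference of log2(TPM + 1) between CAC and Con (points, x axis, bars ± SE) for the 29 tested members at 6 and 8 weeks, in the order of the 6-week values. Mmp3 leads in both panels, at 2.36 and 2.84, and the errors are wider at 8 weeks.

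The summed levels place these changes within the families. The summed Mmp TPM was 138 ± 14.2 in CAC at 6 weeks, 70.8 ± 17.7 in NCAC and 88.9 ± 11 in Con, and the summed Timp TPM was 162 ± 20.1, 108 ± 14.4 and 124 ± 19.7 in the same order (SD, n = 5 each). At 8 weeks the summed Mmp TPM was 322 ± 86.2 in CAC (SD, n = 7), 227 ± 114 in NCAC and 261 ± 84.4 in Con (SD, n = 5 each). The summed Timp TPM was then 295 ± 64.4 in CAC (SD, n = 7), 357 ± 177 in NCAC and 371 ± 124 in Con (SD, n = 5 each). The ratio of the Mmp sum to the Timp sum lay between 0.847 and 1.24 in CAC at 8 weeks, above the 0.49 to 0.789 of NCAC and the 0.631 to 0.818 of Con, without overlap. At 6 weeks it lay between 0.771 and 0.974 in CAC, 0.501 and 0.799 in NCAC and 0.654 and 0.902 in Con, with overlap. Ratios above 1 were also found outside CAC at earlier weeks. At 4 weeks the ratio lay between 0.659 and 1.12 in CAC, 0.51 and 1.21 in NCAC and 0.562 and 1.11 in Con. At 2 weeks it lay between 0.395 and 1.08 in CAC, 0.564 and 0.725 in NCAC and 0.564 and 1.12 in Con. Mmp2 made up 68.4 ± 5.25% of the Mmp sum in CAC at 6 weeks and 53.9 ± 5.09% at 8 weeks (SD, n = 5 and 7). Its share at 6 and 8 weeks was 70.5 ± 3.98% and 67.5 ± 3.05% in Con and 65.1 ± 5.9% and 65.5 ± 4.68% in NCAC (SD, n = 5 each). Timp2 made up 36.5 ± 4.19% of the Timp sum in CAC at 6 weeks and 62.5 ± 2.93% at 8 weeks (SD, n = 5 and 7). The Timp2 share was also higher at 8 weeks in the other groups. It was 43.9 ± 2.96% and then 70.1 ± 5.26% in Con, and 41.2 ± 6.28% and then 65.9 ± 8.56% in NCAC (SD, n = 5 each). The sums were formed with results known and were given no test.

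**Figure D4:**
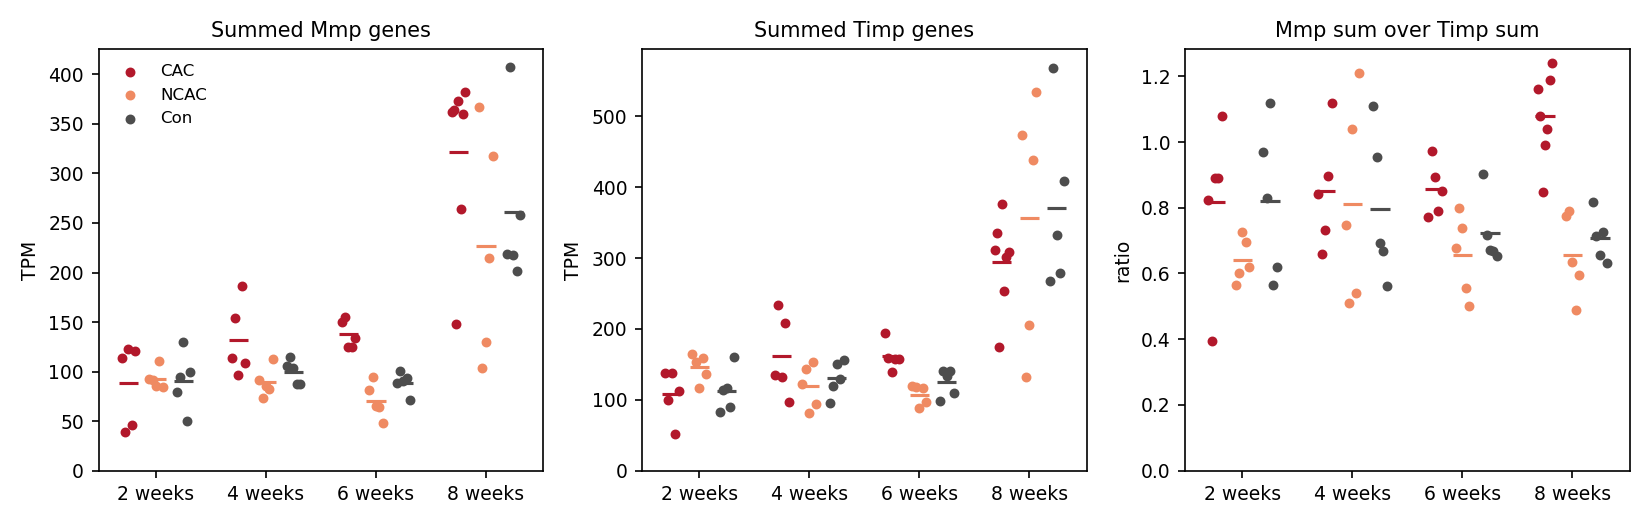
Summed TPM of the 23 Mmp genes, summed TPM of the 4 Timp genes and their ratio (points per library, linear axes from 0, line = group mean) in CAC, NCAC and Con at 2, 4, 6 and 8 weeks. The ratio at 8 weeks is 0.847 to 1.24 in CAC and 0.631 to 0.818 in Con.

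The mock-injected muscles themselves changed between 6 and 8 weeks. In Con at 8 against 6 weeks 22 of 29 members rose and 0 fell, against 54.1% and 9.65% of all tested genes. Of all genes 63.7% passed in either direction. After rescaling, which moved the median log2 difference by -0.34, 20 members were higher and 2 (Mmp15 and Adamts8) lower, and all genes split into 4299 higher and 4301 lower in place of 7319 and 1305. Mmp19 had 12.2, 18.7, 9.14, 10.9 and 15.1 TPM in Con at 8 weeks and 1.51, 1.5, 1.4, 1.57 and 2.06 TPM in Con at 6 weeks, a log2 difference of 2.41 (adjusted p = 1.47e-06). Timp2 had 199, 428, 227, 196 and 254 TPM at 8 weeks and 46, 64, 57.5, 63.3 and 42.5 TPM at 6 weeks, and Adamts5 had 12.3 to 30.8 TPM at 8 weeks and 2.42 to 3.8 TPM at 6 weeks. Each of these pairs was apart, with log2 differences of 2.19 and 2.26 (adjusted p = 8.94e-06 and 6.31e-06). Mmp3 rose by 2.17 (adjusted p = 0.000181), so its level in Con at 8 weeks, 5.75 ± 3.55 TPM, was near the 6.23 ± 2.68 TPM of CAC at 6 weeks (SD, n = 5 each). The Timp3 call (0.0404) was lost on rescaling (0.601) and without Con replicate 1, 3, 4 or 5 of 6 weeks (0.0972, 0.0555, 0.0627 and 0.0648) or 2, 3 or 5 of 8 weeks (0.0925, 0.0828 and 0.0971). Adamts1 (adjusted p = 0.769) and Timp4 (0.45) did not pass. Con at 6 against 2 weeks gave 0 of 29 members by limma, where 0% of all genes passed and 4 members and 1213 of all genes had an unadjusted p under 0.05. The week and anything else particular to those libraries cannot be told apart.

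**Figure D5:**
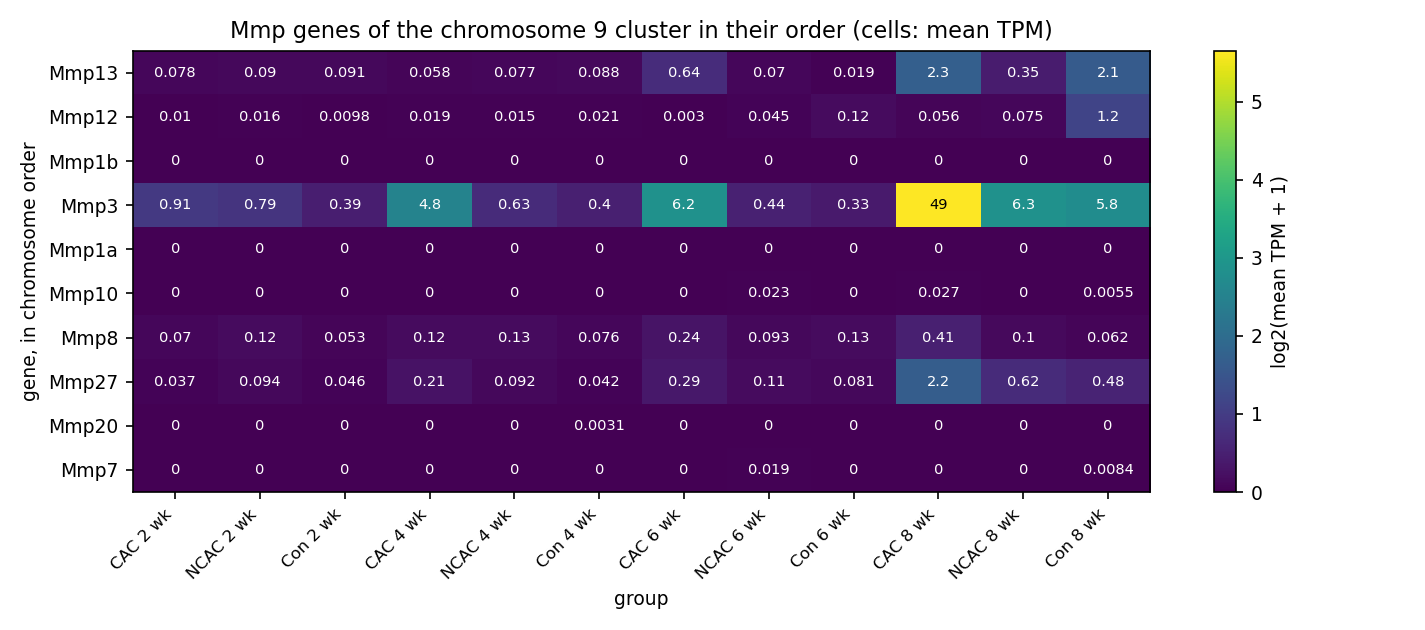
Mean TPM (printed in each cell, colour = log2(mean TPM + 1)) of the 10 chromosome 9 Mmp genes, in chromosome order down the page, for the 12 groups. Mmp3 stands at 49.4 TPM in CAC at 8 weeks, while Mmp1a and Mmp1b are at 0 in all groups.

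Within the cluster Mmp3 had the highest mean TPM in CAC at 6 and 8 weeks. At 8 weeks Mmp13 had 0.142 to 8.74 TPM in CAC, 0.12 to 0.554 TPM in NCAC and 0.174 to 7.48 TPM in Con and did not pass (adjusted p = 0.886 against Con). Mmp8, the neutrophil collagenase, was not tested and reached at most 0.866 TPM at 8 weeks in CAC, 0.18 TPM in NCAC and 0.114 TPM in Con. Mmp12, the macrophage elastase, was not tested and at 8 weeks had up to 0.21 TPM in CAC, 0.155 TPM in NCAC and 2.19 TPM in Con. With no filter on low values both were tested: Mmp8 was then called higher in CAC against Con and NCAC at 8 weeks and against NCAC at 6 weeks, and Mmp12 lower in CAC against Con at 8 weeks. Mmp12 and Mmp1b overlap on opposite strands, and the strand setting of the quantification is not given in the sources used here. The other genes of the cluster had lower mean TPM than Mmp3 in CAC at 6 and 8 weeks.

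The counts in the lists of related genes stand beside those of all tested genes, of which 23.5% rose and 3.87% fell in CAC against Con at 6 weeks and 6.31% rose and 4.26% fell at 8 weeks. Of the inducers of metalloprotease genes, such as cytokine receptors and AP-1 or STAT factors, 8 of 16 tested rose and 0 fell in CAC against Con at 6 weeks (median log2 difference 0.63, all tested genes 0.16), and 7 rose and 1 fell at 8 weeks (median 0.87, all genes 0). Osmr, the oncostatin M receptor, had 11.7 ± 1.99 TPM in CAC and 2.6 ± 0.172 TPM in Con at 6 weeks (SD, n = 5 each, adjusted p = 1.12e-08), and 17.3 ± 4.6 TPM in CAC (SD, n = 7) and 4.83 ± 0.957 TPM in Con (SD, n = 5) at 8 weeks (0.000267). Il1r1, the interleukin 1 receptor, had 9.71 ± 1.7 TPM in CAC and 2.74 ± 0.119 TPM in Con at 6 weeks (SD, n = 5 each, adjusted p = 3.13e-07). Stat3 had 57.8 ± 6.31 TPM in CAC and 20.9 ± 1.81 TPM in Con at 6 weeks (SD, n = 5 each, adjusted p = 1.12e-06). Of the plasminogen system 2 of 7 rose at 6 weeks (Plau, urokinase, adjusted p = 0.0209, and Thbd) and 1 fell at 8 weeks (Plat, tissue plasminogen activator, 0.0232). The 2 of 7 is near the share of all genes. Of the other metalloprotease regulators 5 of 9 rose at 6 weeks, among them Spock2, Lrp1 (a clearance receptor) and Rarres1, and 0 passed at 8 weeks. Of the ADAM and astacin proteases 5 of 11 rose at 6 weeks, and 1 rose (Tll1) and 3 fell (among them Adam8 and Adam19) at 8 weeks. Of the ADAMTS-like proteins 2 of 6 rose, also near the share of all genes, and 1 fell at 6 weeks (Papln fell), and 0 passed at 8 weeks. Of the cathepsins 6 of 11 rose at 6 weeks (Ctsd, Ctsz and Ctso had the smallest adjusted p) and 0 passed at 8 weeks.

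Among matrix proteins that these enzymes can cut, collagens had more falls than rises. Of 17 collagens 3 rose (Col4a1 and Col4a2, chains of basement membrane collagen, and Col14a1) and 6 fell at 6 weeks, with a median log2 difference of -0.35. At 8 weeks 0 rose and 7 fell, with a median of -1.09, and Col5a3 had 9.13 ± 4.17 TPM in CAC (SD, n = 7) and 38.4 ± 22.5 TPM in Con (SD, n = 5, adjusted p = 0.00505). Of 23 matrix proteoglycans and glycoproteins 3 rose (Eln, Fbln1 and Fbln5) and 4 fell at 6 weeks, and 2 fell at 8 weeks (Fbn1 and Fn1). Of 12 genes of collagen processing and crosslinking 2 rose and 1 fell at 6 weeks, and 1 rose and 1 fell at 8 weeks. Lox, which crosslinks collagen and elastin, had 18.2 ± 6.61 TPM in CAC and 5.13 ± 1.29 TPM in Con at 6 weeks (SD, n = 5 each, adjusted p = 0.000933). Loxl2 of the same family had 12 ± 3.97 TPM in CAC (SD, n = 7) and 37.6 ± 16.6 TPM in Con (SD, n = 5) at 8 weeks, where it fell (adjusted p = 0.00889). NCAC against Con had 0% of all tested genes called at 6 and 8 weeks, so its 0 calls in these lists tell nothing particular to them.

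Markers of the cells that make these proteins also differed, and their part in the results was not tested. At 6 weeks 7 of 13 macrophage markers rose in CAC against Con, with sums of 234 to 298 TPM in CAC, 67.7 to 218 TPM in NCAC and 140 to 172 TPM in Con. Of 14 neutrophil markers 6 were tested and 5 rose, with sums of 21.4 to 49.4 TPM in CAC, 8.13 to 13 TPM in NCAC and 5.62 to 14.8 TPM in Con. The defining neutrophil genes Ly6g, Ngp, Camp, Elane and Mpo were under 1 TPM in every library of CAC and Con at 6 weeks. Those that rose were Lcn2, S100a8, S100a9, Csf3r and Retnlg. Lcn2, which other cells also make, had 8.83 ± 5.81 TPM in CAC and 0.517 ± 0.147 TPM in Con, and S100a9 had 12.1 ± 3.94 TPM in CAC and 5.08 ± 2.24 TPM in Con (SD, n = 5 each). Adipocyte markers had 9 of 12 higher, with sums of 5440 to 11600 TPM in CAC and 5530 to 9430 TPM in Con. Endothelial markers had 7 higher and 1 lower of 12, with sums of 340 to 411 TPM in CAC and 281 to 304 TPM in Con, and smooth muscle and pericyte markers had 4 of 12 higher, with 3240 to 6150 TPM in CAC and 1920 to 2350 TPM in Con. Tenocyte markers had 4 of 12 lower, with 281 to 564 TPM in CAC and 347 to 786 TPM in Con. Fibro-adipogenic progenitor markers had 2 higher and 1 lower of 12 (1620 to 1870 TPM in CAC, 1300 to 1600 TPM in Con). Muscle fibre markers had 3 higher and 1 lower of 14, mast cell markers 1 and 1 of 10, Schwann cell markers 1 and 0 of 10, bone and cartilage markers 1 and 1 of 4 tested, and satellite cell and melanocyte markers 0 of 10 and 0 of 2.

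At 8 weeks 0 of 13 macrophage markers passed in CAC against Con, with sums of 1070 to 2880 TPM in CAC and 1250 to 2430 TPM in Con. Libraries varied more at this time, so 0 calls do not show equal levels, and the part of the markers in the results was not tested. Fibro-adipogenic progenitor, adipocyte, Schwann cell, satellite cell and melanocyte markers had 0 calls as well. Of the neutrophil markers 2 rose (Lcn2 and Retnlg), with sums of 58.5 to 169 TPM in CAC and 33.8 to 79.1 TPM in Con, and Ly6g, Ngp and Mpo were under 1 TPM in every library of both groups. Tenocyte markers had 6 of 12 lower (247 to 513 TPM in CAC, 268 to 839 TPM in Con), mast cell markers 4 of 10 lower (87.9 to 214 TPM in CAC, 348 to 723 TPM in Con) and muscle fibre markers 3 of 14 lower (40000 to 78800 TPM in CAC, 53100 to 75000 TPM in Con). Endothelial markers had 2 higher and 1 lower, smooth muscle and pericyte markers 2 higher, with sums of 2320 to 3530 TPM in CAC and 1270 to 1960 TPM in Con that did not overlap, and bone and cartilage markers 1 lower. Summed melanocyte markers were 17.2 and 9.36 TPM in CAC replicates 4 and 5 of 8 weeks and at most 1.65 TPM in the other CAC libraries of that week and 2.61 TPM in Con. Mmp3 stood at 65.1 and 45.6 TPM in those libraries, within the range of the other CAC libraries of that week. In Con at 8 against 6 weeks 22 members rose, and of all tested genes 54.1% rose and 9.65% fell. There 13 of 13 macrophage markers, 12 of 12 fibro-adipogenic progenitor markers and 11 of 12 adipocyte markers rose and 6 of 14 muscle fibre markers fell. These marker counts were not repeated after rescaling, and the counts of the other marker lists are not given for this comparison. The summed fibro-adipogenic progenitor markers were 6490 to 14000 TPM at 8 weeks and 1300 to 1600 TPM at 6 weeks in Con, and the summed macrophage markers were 1250 to 2430 TPM at 8 weeks and 140 to 172 TPM at 6 weeks.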

How the data were processed

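Soleus RNA of 62 mice was sequenced from stranded mRNA libraries on a NovaSeq 6000, per the labels' protocols, and the labels gave each library's group and week. The authors deposited 1 table of TPM for 47643 genes. Their build, per the submitters' processing notes, was mm10; how reads were aligned and quantified is not given in the sources used here. Depth cannot be had from TPM, so no interval or detection limit was computed, and the number of libraries limits the precision.

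Values were transformed to log2(TPM + 1), and genes with at least 1 TPM in at least 5 libraries were kept. The 3 groups of a week were fitted together with limma 3.58.1 (R 4.3.3) with an intensity trend, without the other weeks, since libraries of week 8 varied more. Con times were compared in a fit of those 2 groups, and differences between CAC effects in a fit of both weeks. Adjusted p values are Benjamini-Hochberg values over all tested genes. These fits were also tested on simulated data with known changes. P-values set a difference between groups against the spread between these libraries. Full values are given for members that passed in CAC against Con or NCAC at any week, for all Timp genes and for Mmp2, Mmp3, Mmp9, Mmp14, Adamts1, Adamts4 and Adamts5. Of each list of related genes up to 3 with the smallest adjusted p at 6 and at 8 weeks could be named. The members, gene lists and marker lists were chosen with earlier results of these data known.

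Alternatives were a pseudocount of 0.1, no filter, median-of-ratios rescaling, 1 fit of all 12 groups, a replicate block, quality weights per sample and, in turn, the removal of each library. GENCODE M21 (mm10) gave the positions of all 46 members, and promoter sequences came from RefSeq (GRCm38.p6). Figures used matplotlib 3.10.9 (Python 3.11.15).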

Additional observations from a re-analysis of the deposited data

Results flagged for a closer look

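In 206 groups of libraries of the 22 members with full values, 13 held a library far from the others of its group by Dixon's test at 95%, and chance alone flags about 1 group in 20. Con at 8 weeks, replicate 2, was the high library in 6 of them, with Mmp2 at 286 TPM, Mmp14 at 46.8 TPM, Mmp11 at 9.24 TPM, Adamts5 at 30.8 TPM, Adamts15 at 8.35 TPM and Timp2 at 428 TPM. That library also had the highest summed tenocyte, mast cell and fibro-adipogenic progenitor markers of its group, at 839, 723 and 14000 TPM, and their part in the result was not tested. In the same group replicate 5 was high for Mmp9 (11.1 TPM) and replicate 1 low for Timp4 (8.3 TPM). Timp1 was high in CAC at 8 weeks, replicate 4, at 42.2 TPM. Adamts14 was high in CAC at 6 weeks, replicate 4 (1.57 TPM) and in Con at 2 weeks, replicate 3 (2.99 TPM). Adamts5 was high in NCAC at 4 weeks, replicate 5 (4.33 TPM), and Mmp19 in Con at 6 weeks, replicate 5 (2.06 TPM).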

How the results depend on the processing

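There were 64 calls of members in CAC against Con or NCAC and in Con at 8 against 6 weeks. Of these, 36 passed under every alternative run, 0 changed direction, and 153 of 1132 alternative values no longer passed. The 64 include 22 of Con at 8 against 6 weeks, which compare no CAC libraries. Of those 22, only Mmp13, Timp3, Adamts4 and Adamts9 failed in some alternative, so losses were more frequent among the CAC calls. At 6 weeks the calls against Con for Mmp3, Mmp14, Mmp15, Mmp19, Adamts4, Adamts9 and Adamts15 passed under each alternative, and at 8 weeks those for Mmp3 and Adamts4 did. Against NCAC, those for Mmp2, Mmp3, Mmp14, Mmp15, Mmp19 and Adamts4 did at 6 weeks. At 8 weeks against NCAC, those for Mmp3, Adamts1 and Adamts4 did. The counts of called members moved most with 1 fit of all 12 groups, which shares 1 spread over weeks that differ in spread. It called 7 in place of 14 for CAC against Con and 7 in place of 14 for CAC against NCAC at 6 weeks, 14 in place of 6 for CAC against Con and 15 in place of 7 for CAC against NCAC at 8 weeks, 3 in place of 0 for the difference of CAC effects between 8 and 6 weeks, and 0 in place of 1 for CAC against NCAC at 4 weeks. Sample quality weights gave 13 members for CAC against Con and 13 for CAC against NCAC at 8 weeks, 4 in place of 0 for NCAC against Con at 8 weeks, 1 in place of 0 for CAC against NCAC at 2 weeks and for both differences of CAC effects, and 0 in place of 1 for CAC against NCAC at 4 weeks. No filter on low values and rescaling each gave 0 in place of 1 for CAC against NCAC at 4 weeks. With no filter Adamts16 was also called lower in CAC, against Con at 6 and 8 weeks and against NCAC at 6 weeks. Calls lost there included Mmp2 (adjusted p = 0.0598), Mmp11 (0.051), Timp3 (0.0596) and Adamts8 (0.0553) against Con at 6 weeks. Against NCAC they included Timp2 (0.0745) and Adamts1 (0.0674) at 6 weeks and Adamts15 (0.0582) and Adamts10 (0.0596) at 8 weeks. Without the libraries of under 200 TPM of summed tenocyte markers, an alternative chosen after seeing the data, 1 member in place of 0 was called for CAC against NCAC at 2 weeks (Mmp14) and for the difference of CAC effects between 8 and 6 weeks (Adamts10). At 8 weeks against NCAC that alternative lost Adamts9 (adjusted p = 0.0969), Mmp27 (0.082) and Adamts15 (0.159) and left 3 members higher and 7 lower. There all genes split into 1794 higher and 1141 lower in place of 2606 and 362. Leaving out the libraries where Myh4 reached 500 TPM, also chosen after seeing the data, left 13 and 14 members at 6 weeks and 5 and 7 at 8 weeks for CAC against Con and against NCAC. Except as stated, the cause was not tested.

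The replicate numbers did not pair the samples: 17 of 70 same-numbered pairs had deviations correlated above 0.1 (range -0.67 to 0.48, median 0). With the number as a replicate block, 2 members (Mmp3 and Adamts4) in place of 6 were called for CAC against Con at 8 weeks and 0 in place of 1 for CAC against NCAC at 4 weeks. The calls absent under the block were Mmp27 (adjusted p = 0.0532), Adamts10 (0.0726), Adamts14 (0.121) and Adamts19 (0.108) against Con at 8 weeks, Adamts10 against NCAC at 8 weeks (0.111), Adamts1 against NCAC at 6 weeks (0.05) and Mmp2 against NCAC at 4 weeks (0.0986). All genes called moved to 920 in place of 1430 and 208 in place of 790 in those comparisons and to 68 in place of 140 for CAC against Con at 4 weeks.

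Leaving out each library in turn gave 0 to 1 members for CAC against NCAC at 2 weeks, 0 to 2 for CAC against Con and 0 to 3 for CAC against NCAC at 4 weeks, 9 to 15 for CAC against Con and 11 to 14 for CAC against NCAC at 6 weeks, 4 to 9 for CAC against Con and 5 to 8 for CAC against NCAC at 8 weeks, 20 to 24 for Con at 8 against 6 weeks, and 0 in the other comparisons. The genes called of all tested, which give the background shares, then ranged over 1 to 310 (68 as reported) for CAC against NCAC and 0 to 78 (1) for NCAC against Con at 2 weeks, 34 to 936 (140) for CAC against Con and 98 to 2196 (790) for CAC against NCAC at 4 weeks, 2034 to 5340 (3705) and 2852 to 5729 (4416) at 6 weeks, 795 to 2027 (1430) and 2020 to 4125 (2968) at 8 weeks, and 0 to 14 (0) and 1 to 9 (1) for the differences of CAC effects between 8 and 6 and between 6 and 4 weeks. Over the alternatives that keep every library apart from those doubted, the genes called of all tested were 1 to 211 (68 as reported) for CAC against NCAC at 2 weeks, 65 to 205 (140) for CAC against Con and 200 to 803 (790) for CAC against NCAC at 4 weeks, 920 to 4206 (1430) for CAC against Con and 1483 to 5837 (2968) for CAC against NCAC at 8 weeks, 0 to 2284 (0) for NCAC against Con at 8 weeks, and 0 to 198 (0) and 0 to 106 (1) for the 2 differences of CAC effects. The comparisons limited in this way include NCAC against Con at 8 weeks, where 0 calls do not show equal levels. The unknown depth leaves the values under 1 TPM without a counting error.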
